A study of Mus musculus with 20 samples.

Results

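The genes described are 10 members of the Hippo signalling pathway and its transcriptional output, matched by mouse symbol among the 30265 genes of the deposited tables: the coactivators Yap1 and Wwtr1, the DNA-binding partner Tead1, the kinases Lats1 and Lats2, the scaffold Nf2, the angiomotins Amot and Amotl2, the kinase inhibitor Ajuba and the target Ankrd1. They were read in 20 polyadenylated RNA libraries of a study of Klf5, a Krüppel-like transcription factor. In the first experiment, embryonic stem cells (ESCs) of a C57BL/6J line overexpressed Klf5 (2 libraries) or green fluorescent protein (GFP, 2 libraries), all in Knockout DMEM with LIF on irradiated C57BL/6J fibroblast feeders. In the second, single embryos at embryonic day 4.5 (E4.5), the late blastocyst stage, had been injected with Klf5 siRNA (6 embryos) or scramble siRNA (10 embryos) and cultured in KSOM, with 1 library per embryo. The embryo strain is spelled C57BL/5J in the labels. The labels do not give the vector, its promoter, the number of clones or the siRNA sequence, and do not call the ESC replicates separate cultures. P-values in ESCs therefore measure only the spread between these libraries, which may be technical. Every scramble embryo has a lower library number than every Klf5 siRNA embryo, so the order of the libraries and the siRNA cannot be told apart.

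In the Hippo pathway, the STE20-like kinases MST and the scaffold NF2 (merlin) bring the LATS kinases into action, and LATS phosphorylates the coactivators YAP1 and WWTR1 (TAZ), which then stay out of the nucleus. Unphosphorylated YAP1 and WWTR1 bind the TEAD factors and switch on genes such as Ankrd1, Ccn1 and Ccn2. In the mouse blastocyst, outer cells keep YAP1 nuclear and, with TEAD4, express the trophectoderm genes Cdx2 and Gata3, while in inner cells angiomotins and NF2 at cell contacts favour LATS and Sox2 is expressed. The pathway works largely through phosphorylation and localisation of proteins, which transcript levels do not show.

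Promoter windows of 300 bases (250 before to 50 after the annotated start, RefSeq, GRCm38.p6) were read for 9 of the 10 genes, in 12 windows, to show which hold the core that TEAD factors bind, CATTCC or its reverse complement GGAATG. The core was present in 7 of 12 windows and in 6 of 9 genes, while 14.7% of the 32817 windows in the reference table held it. It was also in 8 of 18 windows of the other Hippo pathway genes and 4 of 13 windows of the other YAP/TEAD targets described below. Ajuba and Ankrd1 each had 2 cores, as had 1.36% of all windows (2 or more). Among the other pathway genes, single windows of Wwc2, Wtip and Tead3 held 3, 4 and 3. In Ankrd1, which responds to YAP1 and TEAD in many cell types, the cores began 210 and 123 bases upstream of the start. In Ajuba they began 186 and 164 bases upstream, in Yap1 141 and in Amotl2 65 bases upstream, and in the distal window of Lats2 4 bases downstream. Both windows of Wwtr1 held the same single core. Windows of Lats1, Nf2 and Amot held none, and Tead1 was not examined. The letters CCNCNCCC or GGGNGNGG, a CACCC or GC box that Krüppel-like and Sp1-type factors can bind, were in 5 of 12 windows (Wwtr1, Lats2, Amotl2 and Ajuba), against 49.5% of all windows. The windows of Ankrd1 (chr19:36119795-36120094, minus strand) and Lats2 (chr14:57746074-57746373, minus strand) are shown because these genes passed the test in embryos, and those of Ajuba (chr14:54577612-54577911, minus strand) and Amotl2 (chr9:102717554-102717853, plus strand) because their levels differed widely between ESCs and embryos. Each runs 5′ to 3′ along the gene, with TEAD cores in capitals.
Ankrd1: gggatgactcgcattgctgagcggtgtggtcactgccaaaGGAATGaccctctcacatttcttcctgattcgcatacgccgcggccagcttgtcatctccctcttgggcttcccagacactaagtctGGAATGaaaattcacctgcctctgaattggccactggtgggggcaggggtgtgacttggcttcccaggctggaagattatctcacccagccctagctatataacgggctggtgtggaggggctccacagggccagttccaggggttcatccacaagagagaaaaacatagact
Lats2: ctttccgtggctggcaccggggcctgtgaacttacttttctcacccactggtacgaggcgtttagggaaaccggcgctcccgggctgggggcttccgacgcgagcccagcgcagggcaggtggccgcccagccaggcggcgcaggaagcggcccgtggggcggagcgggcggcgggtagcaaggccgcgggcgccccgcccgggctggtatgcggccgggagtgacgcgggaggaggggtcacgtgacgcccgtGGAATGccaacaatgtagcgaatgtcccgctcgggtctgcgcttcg
Ajuba: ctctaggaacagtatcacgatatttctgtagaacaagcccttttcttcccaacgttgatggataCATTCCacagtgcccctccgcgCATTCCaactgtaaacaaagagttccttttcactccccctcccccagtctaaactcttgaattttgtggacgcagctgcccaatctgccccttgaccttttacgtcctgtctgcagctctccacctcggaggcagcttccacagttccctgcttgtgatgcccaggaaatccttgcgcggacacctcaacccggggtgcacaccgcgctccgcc
Amotl2: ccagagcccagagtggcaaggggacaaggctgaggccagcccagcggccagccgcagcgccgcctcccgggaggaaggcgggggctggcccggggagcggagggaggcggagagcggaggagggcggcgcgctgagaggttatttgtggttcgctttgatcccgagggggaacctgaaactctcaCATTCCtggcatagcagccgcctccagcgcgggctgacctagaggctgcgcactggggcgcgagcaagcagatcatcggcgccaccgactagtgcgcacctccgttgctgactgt
A match is a description of the letters, not a site shown to be bound.

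Library totals, in units of 1e6 estimated counts, were 26.8 to 37.5 in ESCs and 14.7 to 24.9 in embryos, and 3 counts, the most that a count of 0 allows, stood for 0.0800 to 0.112 and 0.120 to 0.204 CPM (counts per 1e6 counts), for counting error only. Klf5 was at 942 and 882 CPM in Klf5 ESCs, against 80.5 and 70.8 CPM in GFP ESCs. Klf5 siRNA embryos 2 to 6 held 111, 195, 80.8, 117 and 292 CPM of Klf5, but the library labelled Klf5 siRNA embryo 1 held 543 CPM, within the 382 to 592 CPM of scramble embryos, so calls of members in embryos are also given without it. With all embryos Klf5 had a log2 fold change of -1.07 ± 0.33 (SE, edgeR quasi-likelihood test, adjusted p = 0.0273), against -1.56 (adjusted p = 0.0013) when that library was left out. The Klf5 call ended without any 1 of Klf5 siRNA embryos 2 (adjusted p = 0.0619), 3 (0.0509), 4 (0.0583) or 5 (0.0671), and without both embryos 2 and 4 (-0.71, 0.131). It also ended with the mitochondrial share of counts as a covariate (-1.09, adjusted p = 0.0884) and with an offset for transcript length (-0.77, 0.0963), though not with the offset when the library labelled Klf5 siRNA embryo 1 was left out (-1.21, 0.00366). Pluripotency and epiblast markers were detected in all ESC libraries and trophectoderm markers in all embryos. In bulk libraries, fewer cells of a type and less RNA per cell cannot be told apart.

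Overexpression of Klf5 in ESCs moved none of the 10 genes past the threshold (edgeR quasi-likelihood test, Benjamini-Hochberg adjusted p under 0.05 over all genes). Over all 15968 genes tested, 443 (2.77%) passed, 266 higher (1.67%) and 177 lower (1.11%). The median log2 fold change of the 10 genes was -0.06, with values from -0.79 to 0.81, against a median of 0.00 over all genes. Only Ankrd1 had an unadjusted p under 0.05, as had 3712 of all 15968 genes tested, and DESeq2 called none of the 10 either. The Klf5 and GFP libraries did not overlap in CPM for 3 genes, Yap1 above and Ajuba and Ankrd1 below, while 56.4% of all tested genes showed no such overlap in this design of 2 against 2.

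**Figure D1:**
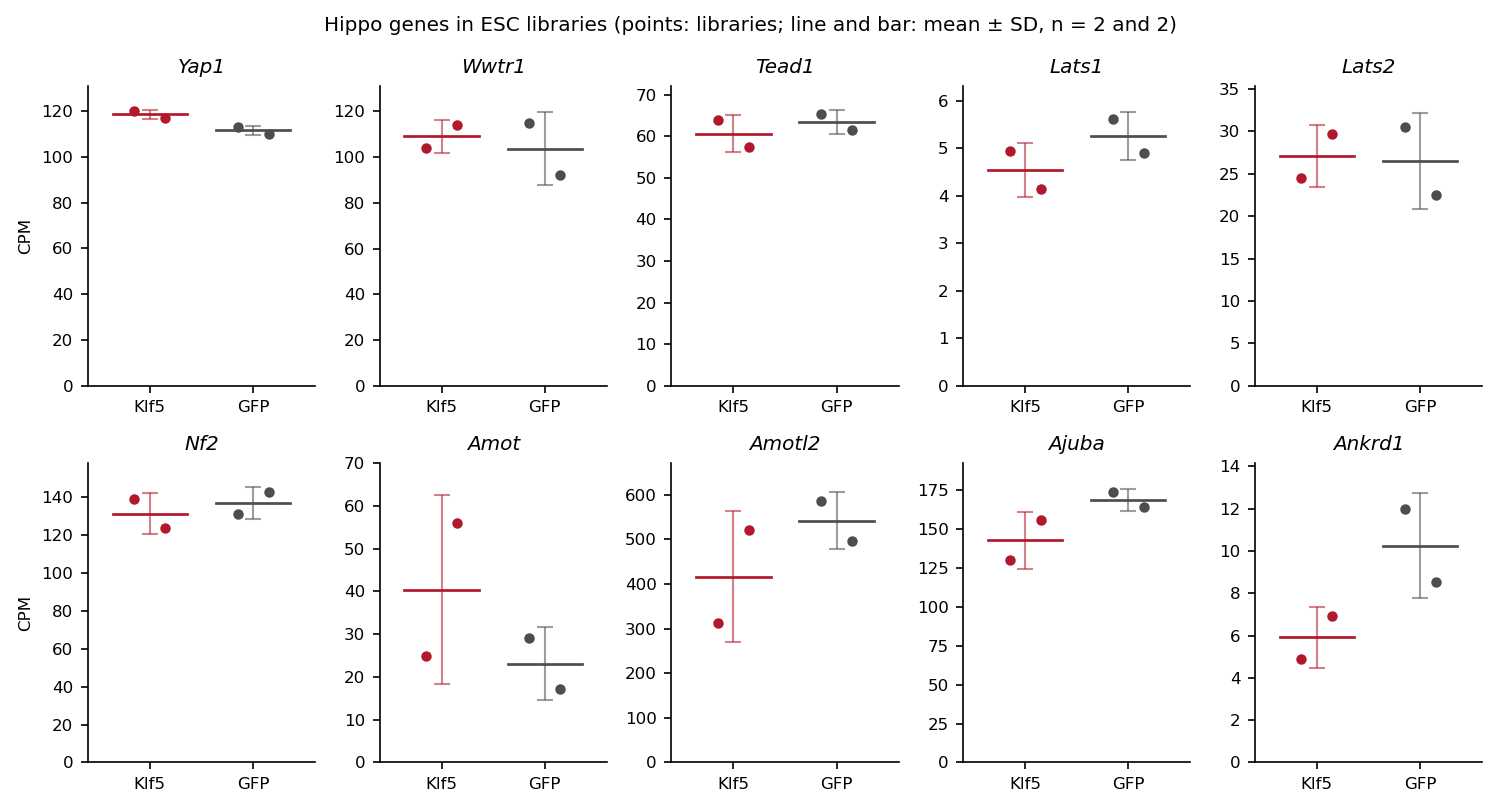
CPM of the 10 genes in each ESC library (points), with mean ± SD over 2 Klf5 libraries (left of each panel) and 2 GFP libraries (right), on linear axes that start at 0. Amotl2 and Amot differed widely between the 2 Klf5 libraries, while both Ankrd1 values in Klf5 ESCs lay below both in GFP ESCs.

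In Klf5 siRNA embryos, 2 of the 9 genes tested passed the threshold: Lats2 was lower and Ankrd1 was higher. Ajuba was too low for the test. Over all 12385 genes tested, 2448 (19.8%) passed, 1490 higher (12.0%) and 958 lower (7.74%), so a share of 2 in 9 is close to that of all genes. The median over the 9 tested genes was -0.38, with values from -1.95 to 4.26, against -0.01 over all genes. All tested genes with long transcripts, as most of these members have, were nearer to the members' median. In length deciles 8, 9 and 10 (the longest) the medians of all genes were -0.27, -0.28 and -0.34. No tested member separated the 6 Klf5 siRNA embryos fully from the 10 scramble embryos, as 4.81% of all tested genes did. Without the library labelled Klf5 siRNA embryo 1, every tested member kept its sign, and 3 members passed, Amot in addition. That count is not set against the number of all genes passing without this library. The common biological coefficient of variation was 0.739 between embryos, against 0.163 between ESC libraries.

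**Figure D2:**
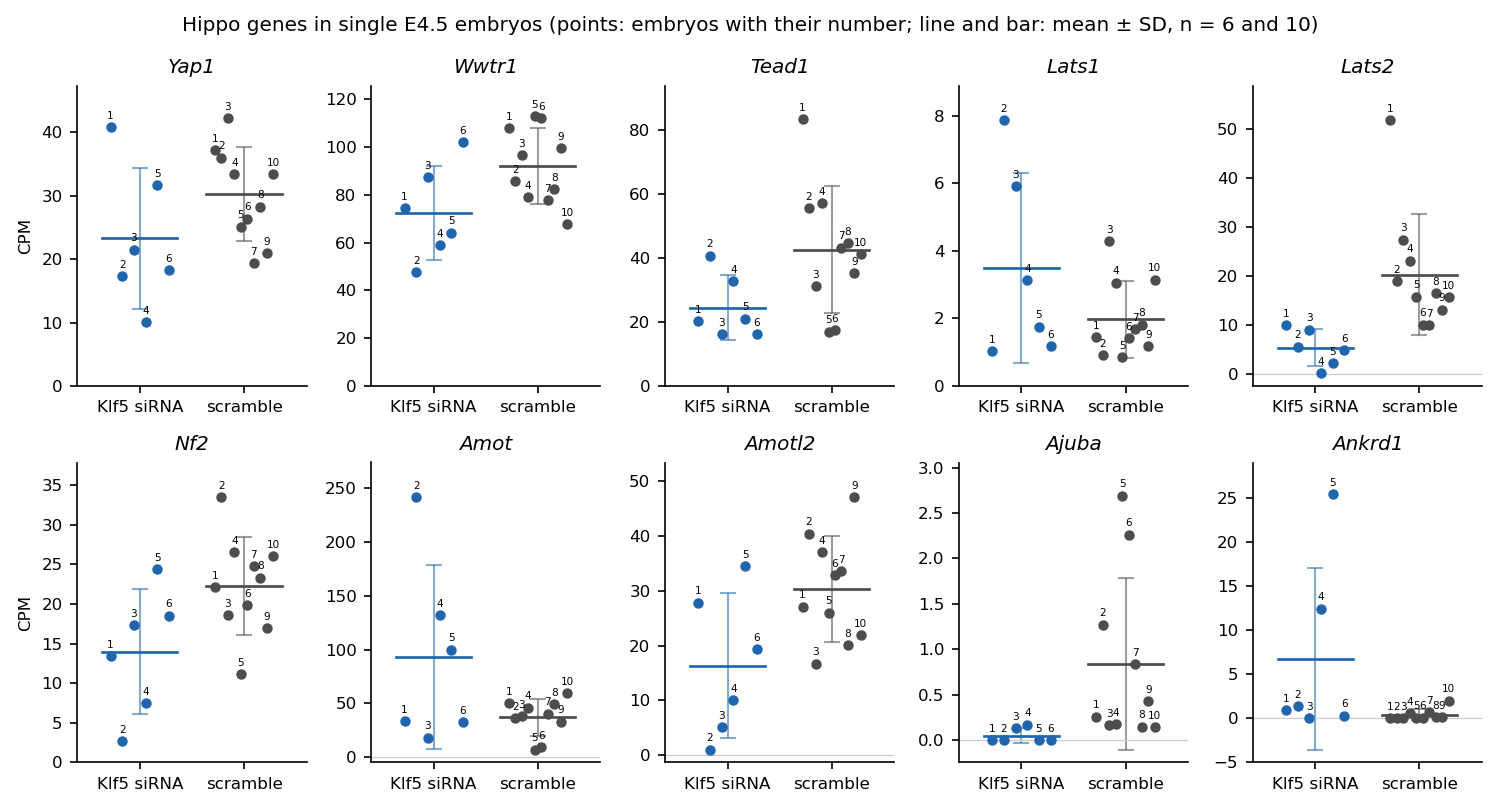
CPM of the 10 genes in each embryo (points with the embryo's number), with mean ± SD over 6 Klf5 siRNA embryos (left of each panel) and 10 scramble embryos (right), on linear axes. Lats2 was at or below 9.88 CPM in every Klf5 siRNA embryo, and the high Ankrd1 values came from Klf5 siRNA embryos 4 and 5.

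Gene positions are given on mm10. The coactivator Yap1 (chr9:7931999-8004596) was at 120 and 117 CPM in Klf5 ESCs, against 113 and 110 CPM in GFP ESCs. Both Klf5 values lay above both GFP values, but the log2 fold change of 0.09 ± 0.10 (SE) was within its error (adjusted p = 0.64). In Klf5 siRNA embryos Yap1 had a lowest, median and highest value of 10.1, 19.9 and 40.8 CPM, against 19.4, 30.8 and 42.2 CPM in scramble embryos. The highest siRNA value was that of the library labelled embryo 1, and the groups overlapped (log2 fold change -0.38 ± 0.29, adjusted p = 0.377). Its paralog Wwtr1 (chr3:57455649-57575910), the TAZ gene, was at 104 and 114 CPM in Klf5 ESCs, against 115 and 92.3 CPM in GFP ESCs, with no difference beyond the libraries' spread (0.07 ± 0.14, adjusted p = 0.787). In embryos Wwtr1 ranged from 47.7 to 102 CPM (median 69.2) with Klf5 siRNA and from 67.7 to 113 CPM (median 91.1) with scramble siRNA. This was a log2 fold change of -0.35 ± 0.21 (adjusted p = 0.251), which was 0.01 after an offset for transcript length.

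Tead1 (chr7:112679318-112906807) encodes 1 of the TEAD factors through which both coactivators act. It was at 63.8 and 57.5 CPM in Klf5 ESCs, against 65.4 and 61.4 CPM in GFP ESCs (log2 fold change -0.06 ± 0.12, adjusted p = 0.78). In embryos the lowest, median and highest values were 16.1, 20.7 and 40.8 CPM with Klf5 siRNA, against 17.0, 42.3 and 83.5 CPM with scramble siRNA. The siRNA embryos lay mostly in the lower part of the scramble range, and the log2 fold change of -0.80 ± 0.34 missed the threshold (adjusted p = 0.105). With the mitochondrial share of counts as a covariate the value was 0.23, while without Klf5 siRNA embryos 2 and 4 it was -1.22 and passed (adjusted p = 0.0389), the only setting of 27 that called it. Scramble embryos 5 and 6, at 17.0 and 17.5 CPM, were near the lowest siRNA embryos. Among scramble embryos these libraries had the highest totals, 24.9 in units of 1e6 counts. They also had the highest summed trophectoderm markers, 7700 and 8430 CPM, against 2090 to 3880 CPM in the other scramble embryos. Their mitochondrial shares, 4.34 and 5.48%, were the lowest, against 8.04 to 18.5%. The part of these traits in the Tead1 values was not tested.

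Of the LATS kinases, which phosphorylate the coactivators, Lats2 (chr14:57689662-57758388) was lower in Klf5 siRNA embryos. It was at 9.88, 5.53, 8.99, 0.0560, 2.15 and 4.84 CPM in Klf5 siRNA embryos 1 to 6, against 51.9, 18.9, 27.4, 23.1, 15.7, 10.0, 9.87, 16.4, 13.1 and 15.6 CPM in scramble embryos 1 to 10. The groups met only at 1 value, Klf5 siRNA embryo 1 at 9.88 CPM and scramble embryo 7 at 9.87 CPM, and the 0.0560 CPM of Klf5 siRNA embryo 4 was a single count. The log2 fold change was -1.95 ± 0.60 (SE, adjusted p = 0.0279), and -2.23 (adjusted p = 0.0235) without the library labelled Klf5 siRNA embryo 1. It was called in 19 of 27 alternative settings. The call ended without Klf5 siRNA embryo 5 (-1.79, adjusted p = 0.0607), without Klf5 siRNA embryo 6 (-1.94, 0.0518) and without scramble embryo 1 (-1.67, 0.0537). It also ended under an offset for transcript length, with all embryos (-1.58, adjusted p = 0.0628) or without Klf5 siRNA embryo 1 (-1.82, 0.0502), when the mitochondrial share was a covariate (-1.31, 0.226), and over the 12 embryos with shared replicate numbers, blocked or not. In ESCs, Lats2 was at 24.5 and 29.7 CPM with Klf5, against 30.5 and 22.5 CPM with GFP, with the Klf5 values inside the GFP range (0.03 ± 0.19, adjusted p = 0.935).

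Lats1 (chr10:7681214-7716460), the other LATS kinase gene, was the lowest of the 10 per kilobase in ESCs, at 4.95 and 4.15 CPM with Klf5, against 5.61 and 4.90 CPM with GFP (log2 fold change -0.21 ± 0.22, adjusted p = 0.62). In embryos it ranged from 1.03 to 7.86 CPM (median 2.44) with Klf5 siRNA and from 0.845 to 4.29 CPM (median 1.55) with scramble siRNA. The highest values were in Klf5 siRNA embryos 2 and 3, and the other siRNA embryos lay within the scramble range (0.82 ± 0.57, adjusted p = 0.329). Per kilobase of transcript, Lats1 made up 39.9 ± 32.3% of LATS transcript (SD, n = 6, range 6.99 to 97.6%) in Klf5 siRNA embryos, against 7.39 ± 3.55% (n = 10, range 1.96 to 12.7%) in scramble embryos. The highest share was that of Klf5 siRNA embryo 4, with its single Lats2 count. In ESCs the Lats1 share was 10.9 ± 2.52% with Klf5 and 12.6 ± 1.31% with GFP (SD, n = 2 each).

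Nf2 (chr11:4765845-4849536), encoding the merlin scaffold that recruits LATS to the membrane, was at 139 and 124 CPM in Klf5 ESCs, against 131 and 143 CPM in GFP ESCs (log2 fold change -0.06 ± 0.12, adjusted p = 0.792). In embryos its lowest, median and highest values were 2.69, 15.3 and 24.4 CPM with Klf5 siRNA, against 11.1, 22.7 and 33.5 CPM with scramble siRNA. Klf5 siRNA embryos 2 and 4 fell below the scramble range and the rest lay within it (-0.67 ± 0.36, adjusted p = 0.204).

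The angiomotins are junction proteins that bind YAP1 and, in the mouse blastocyst, help activate LATS in inner cells. Amot (chrX:145446425-145505181) was at 33.4, 242, 17.9, 132, 100 and 32.4 CPM in Klf5 siRNA embryos 1 to 6, while scramble embryos ranged from 6.67 to 59.2 CPM with a median of 39.1 CPM. Embryos 2, 4 and 5 stood above every scramble embryo and embryos 1, 3 and 6 lay below the scramble median. The log2 fold change was 1.34 ± 0.50 and missed the threshold (adjusted p = 0.0633). It passed without the library labelled Klf5 siRNA embryo 1 (1.45, adjusted p = 0.0479), without Klf5 siRNA embryo 3 (1.49, adjusted p = 0.0337), in DESeq2 (1.32, adjusted p = 0.0479), under the length offset (1.85, adjusted p = 0.00946) and under the mitochondrial covariate (2.65, adjusted p = 0.00299), and was 0.31 (adjusted p = 0.728) without Klf5 siRNA embryos 2 and 4. The lowest scramble values, 6.67 and 8.92 CPM, were again those of embryos 5 and 6. In ESCs Amot was at 24.8 and 56.1 CPM with Klf5, against 29.1 and 17.1 CPM with GFP, so the difference was within the spread of the Klf5 libraries (0.81 ± 0.50, adjusted p = 0.403).

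Amotl2 (chr9:102716672-102733418), itself a YAP1 target as well as an angiomotin, was at 27.8, 1.02, 5.14, 10.1, 34.5 and 19.4 CPM in Klf5 siRNA embryos 1 to 6, while scramble embryos ranged from 16.7 to 47.1 CPM with a median of 29.9 CPM. Klf5 siRNA embryos 2, 3 and 4 were below all scramble embryos, the others within their range (log2 fold change -0.89 ± 0.48, adjusted p = 0.204). In ESCs Amotl2 was at 313 and 520 CPM with Klf5, against 587 and 497 CPM with GFP (-0.38 ± 0.25, adjusted p = 0.399). Without the second Klf5 ESC library the value was -0.79 (adjusted p = 0.0376), the only call of a member in ESCs when a library was left out. Per kilobase, Amot made up 68.9 ± 21.9% of angiomotin transcript (SD, n = 6, range 42.2 to 99.3%) in Klf5 siRNA embryos, against 40.6 ± 17.7% (n = 10, range 13.6 to 60.8%) in scramble embryos, while in ESCs Amotl2 made up 88.5 ± 1.03% with Klf5 and 92.4 ± 0.546% with GFP (SD, n = 2 each). These shares were not tested.

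Ajuba (chr14:54567472-54577558), a LIM-domain protein gene whose product holds back the LATS kinases, was listed at 0 in Klf5 siRNA embryos 1, 2, 5 and 6 and at 3 counts in embryos 3 and 4 (0.130 and 0.168 CPM). All scramble embryos had at least 3 counts, with a lowest, median and highest value of 0.143, 0.343 and 2.69 CPM, the highest in embryos 5 and 6. The gene did not pass the filter on low counts in this comparison, so the main test gave no value. DESeq2, with its own filter, put the log2 fold change at -3.93 (adjusted p = 0.00348), while edgeR without the filter put it at -3.90 (adjusted p = 0.0505). In ESCs Ajuba was abundant, at 130 and 156 CPM with Klf5, against 174 and 164 CPM with GFP. Both Klf5 libraries lay below both GFP libraries, with a log2 fold change of -0.24 ± 0.13 (adjusted p = 0.301).

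Ankrd1 (chr19:36111961-36120099), encoding an ankyrin-repeat protein and widely used as a readout of YAP1 and TEAD, was higher in Klf5 siRNA embryos. It was at 0.859, 1.38, 0, 12.4, 25.4 and 0.248 CPM in Klf5 siRNA embryos 1 to 6, against 0, 0, 0, 0.577, 0.0302, 0.0327, 0.683, 0.0978, 0.117 and 1.95 CPM in scramble embryos 1 to 10. Embryos 4 and 5, with 222 and 377 counts, stood above every scramble embryo, and the other 4 siRNA embryos lay within the scramble range. The log2 fold change was 4.26 ± 1.26 (SE, adjusted p = 0.0223), and 4.46 (adjusted p = 0.0216) without the library labelled Klf5 siRNA embryo 1. Without Klf5 siRNA embryo 5 it was 3.07 and no longer passed (adjusted p = 0.114), nor did it with the mitochondrial covariate (5.48, adjusted p = 0.159). In ESCs Ankrd1 was at 4.90 and 6.92 CPM with Klf5, against 12.0 and 8.51 CPM with GFP. Both Klf5 libraries were lower, with a log2 fold change of -0.79 ± 0.26 (unadjusted p = 0.0181, adjusted p = 0.133 in edgeR).

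**Figure D3:**
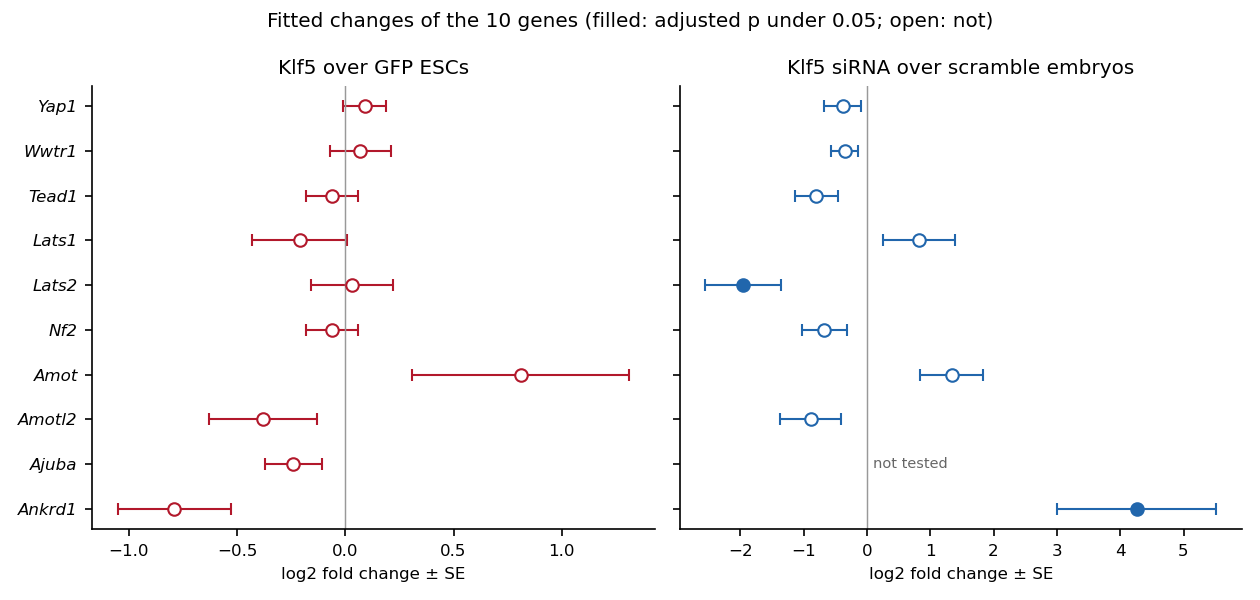
Log2 fold change ± SE (edgeR) of the 10 genes in Klf5 over GFP ESCs (left) and Klf5 siRNA over scramble embryos (right), on separate linear axes. Filled points, Lats2 at -1.95 and Ankrd1 at 4.26 in embryos, had an adjusted p under 0.05, and Ajuba was not tested in embryos.

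Lats2, Ankrd1 and Amot set overlapping Klf5 siRNA embryos apart, a description made after their values were seen. Other members did not share this pattern. Lats1 was highest in embryos 2 and 3, while Nf2 fell below the scramble range in embryos 2 and 4 and Amotl2 in embryos 2, 3 and 4. Embryos 4 and 5 had the lowest Lats2 and the highest Ankrd1, and embryos 2, 4 and 5 the highest Amot. The same embryos 2, 4 and 5 had the least Klf5 (111, 80.8 and 117 CPM) and the lowest summed trophectoderm markers of their group, 182, 575 and 889 CPM, against 976, 2280 and 2400 CPM in Klf5 siRNA embryos 3, 1 and 6. Their summed fibroblast markers were the highest of the group, 6.26, 7.50 and 22.3 CPM, though only 1, 2 and 3 of the 10 markers had a count there. Thy1 alone reached 21.9 CPM in its highest Klf5 siRNA embryo, so these sums do not show fibroblast markers as a set. The part of the Klf5 level and of the marker sums in the Hippo values was not tested. Amotl2, at 10.1 and 34.5 CPM in embryos 4 and 5, was highest of its group in embryo 5 only. Ccn2 (connective tissue growth factor), another classic YAP1 target, was also highest in embryos 4 and 5, at 18.6 and 18.3 CPM, with 3.85 to 6.87 CPM in the other siRNA embryos and 0.304 to 10.7 CPM in scramble embryos. Ccn2 as a whole missed the threshold (log2 fold change 1.29 ± 0.62, adjusted p = 0.148). Ccn1 (Cyr61), the related matricellular gene, was highest of its group in embryo 5 only, at 2.24 and 6.26 CPM in embryos 4 and 5 and from 1.32 to 23.0 CPM in scramble embryos (-1.36 ± 0.57, adjusted p = 0.103). In ESCs Ccn1 was at 294 and 445 CPM with Klf5, against 664 and 546 CPM with GFP (-0.71 ± 0.21, adjusted p = 0.118), and it was called lower by DESeq2 (-0.71, adjusted p = 0.0105) and without the second Klf5 library (-1.04, adjusted p = 0.0198). Ccn2 in ESCs was at 422 and 676 CPM with Klf5, against 543 and 473 CPM with GFP (0.11 ± 0.22, adjusted p = 0.796).

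Of 20 other Hippo pathway genes (upstream kinases and scaffolds, LIM proteins, TEAD partners and paralogs), none passed in ESCs at a median log2 fold change of -0.06. An unadjusted p under 0.05 was found for 3 of the 20, and for 3712 of all 15968 genes tested. The largest difference was Mob1b, a LATS cofactor gene, at 9.27 ± 0.426 CPM with Klf5 and 16.3 ± 2.18 CPM with GFP (SD, n = 2 each, -0.81 ± 0.17, adjusted p = 0.0587), and DESeq2 called it lower. Its paralog Mob1a was at -0.05 ± 0.12. The MST kinase genes Stk3 and Stk4 were at 0.06 and 0.14, and their partner Sav1 at 0.18. Tead2, Tead3 and Tead4 were at -0.15, -0.43 and 0.30, Amotl1 at -0.11, the LIM genes Limd1 and Wtip at 0.11 and 0.13 and the TEAD antagonist Vgll4 at -0.31, all with an adjusted p of at least 0.208.

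In embryos 19 of the 20 were tested, 1 was higher and 1 lower, with a median of -0.04, a smaller share than the 19.8% of all genes that passed. Wwc2, of the KIBRA family of LATS activators, was lower, at 7.74 to 30.3 CPM (median 14.5) with Klf5 siRNA and 20.6 to 47.6 CPM (median 37.9) with scramble siRNA (log2 fold change -1.12 ± 0.30, adjusted p = 0.0133). Frmd6, a FERM-domain gene placed upstream of the pathway, was higher, at 4.20 to 28.3 CPM (median 6.01) with Klf5 siRNA and 1.45 to 8.99 CPM (median 2.92) with scramble siRNA (1.37 ± 0.48, adjusted p = 0.0491). Frmd6 lost its call without any 1 of Klf5 siRNA embryos 2, 3, 5 or 6 and without any 1 of 8 scramble embryos, all but embryos 4 and 8. Wwc2 kept its call whichever embryo was left out but lost it with the mitochondrial covariate (-0.72, adjusted p = 0.152), over the 12 embryos with shared numbers, blocked or not, and with the length offset (-0.70, adjusted p = 0.0766), though not with the offset when Klf5 siRNA embryo 1 was left out (-0.89, adjusted p = 0.0291). Stk3, Stk4, Sav1, Mob1a and Mob1b were at 0.92, -0.04, 0.24, -0.81 and 0.30, and none passed. Limd1 was at -1.03 ± 0.42 (adjusted p = 0.0883) and was called lower only without Klf5 siRNA embryo 5 (-1.51, adjusted p = 0.0181). Amotl1 was at -2.10 ± 0.97 (adjusted p = 0.138) and was called lower only by DESeq2 (-2.10, adjusted p = 0.0474). Wtip was at -0.03 and Vgll4 at -0.16.

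Among the TEAD factors, Tead4, the main TEAD gene of trophectoderm, was at 13.3 to 39.3 CPM (median 29.6) in Klf5 siRNA embryos, against 17.3 to 65.8 CPM (median 47.7) in scramble embryos (log2 fold change -0.77 ± 0.30, adjusted p = 0.0741). It was called lower by DESeq2 (-0.76, adjusted p = 0.0434) and without scramble embryo 3 (-0.87, adjusted p = 0.0305). Tead2 was at 0.05 ± 0.35, and Tead3 was too low to test. Per kilobase, Tead4 made up 46.9 ± 18.1% of TEAD transcript with Klf5 siRNA (SD, n = 6) and 54.4 ± 10.7% with scramble siRNA (n = 10), and Tead2 39.2 ± 17.7% and 29.2 ± 6.75%. Tead2 exceeded Tead4 in Klf5 siRNA embryos 1, 2 and 5 and in scramble embryo 3. Tead1 made up 13.2 ± 5.33% and 15.8 ± 6.82% in these groups per kilobase, but 31.2 ± 10.4% and 35.8 ± 12.0% of CPM, since its longest transcript has 9964 bases. In ESCs Tead2 was the main TEAD gene, with 75.8 ± 1.23% per kilobase in Klf5 ESCs and 77.0 ± 2.36% in GFP ESCs (SD, n = 2 each), while Tead1 held 5.16 ± 0.357% and 4.94 ± 0.181%.

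**Figure D4:**
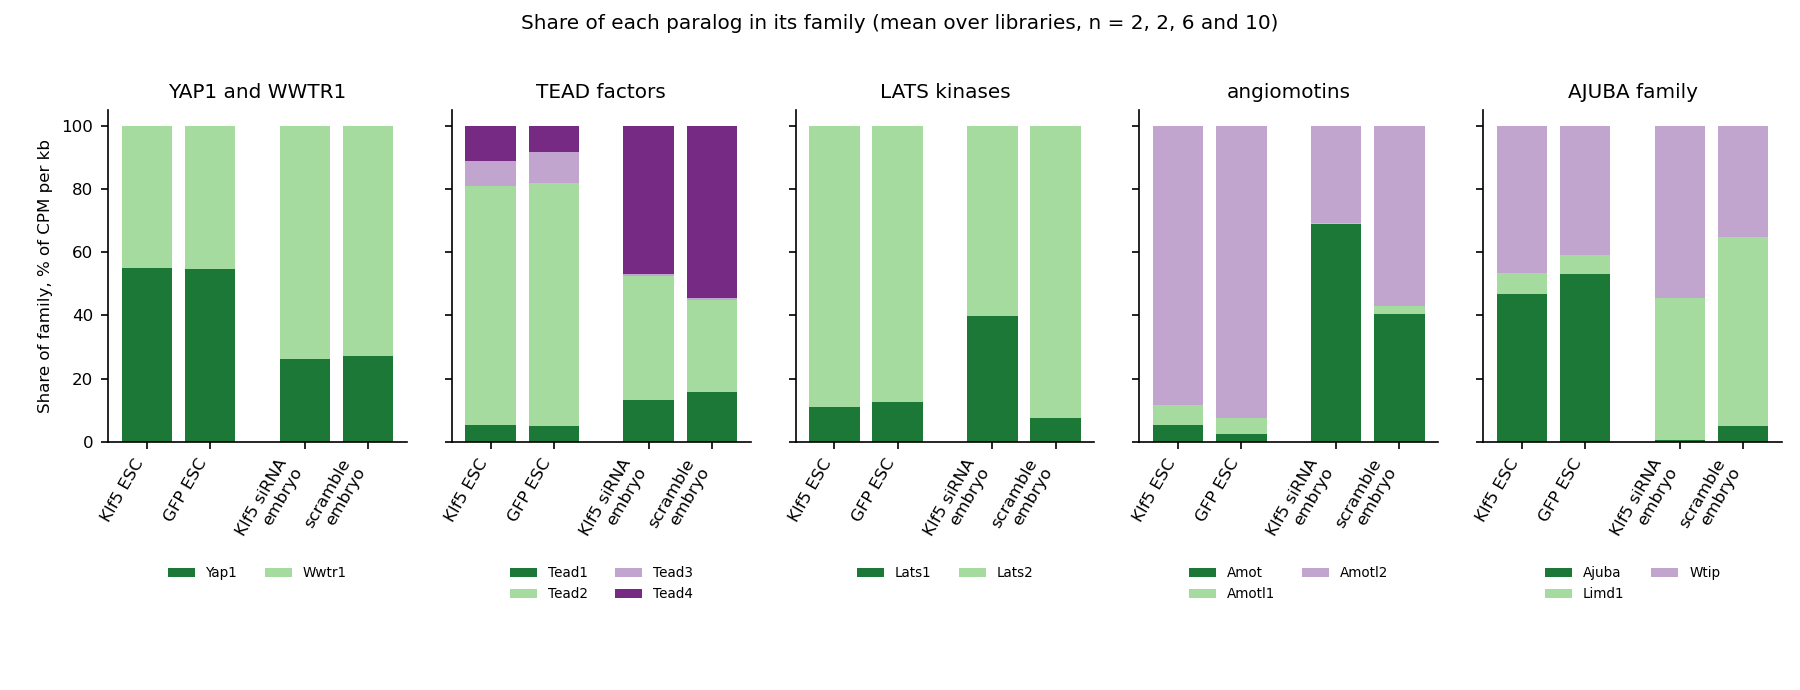
Mean share of each paralog in its family, in percent of the summed CPM per kilobase, stacked for Klf5 ESCs, GFP ESCs, Klf5 siRNA embryos and scramble embryos (n = 2, 2, 6 and 10 libraries). Lats1 made up 39.9% of LATS transcript in Klf5 siRNA embryos, against 7.39% in scramble embryos, and by the mean Tead2 led in ESCs but Tead4 in embryos.

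The other target genes were 19 genes of a published YAP/TEAD signature, of which Ptpn14 is also among the other Hippo pathway genes above. In ESCs 1 of 19 passed, at a median log2 fold change of 0.01: Arhgef17, at 98.6 ± 2.04 CPM with Klf5 and 66.1 ± 3.62 CPM with GFP (SD, n = 2 each, 0.58 ± 0.11, adjusted p = 0.0456). This call was lost without the first Klf5 library and without either GFP library. The Arhgef17 call was also lost with the replicate block. The background in ESCs was 2.77% of all genes. In embryos 11 of 19 could be tested, with a median of -0.35, and 2 passed, a share close to the 19.8% of all genes. Gadd45a, a growth-arrest and DNA-damage gene, was higher, at 0.344 to 15.6 CPM (median 5.44) with Klf5 siRNA and 0.346 to 3.38 CPM (median 1.25) with scramble siRNA (2.19 ± 0.67, adjusted p = 0.0271). It lost its call without Klf5 siRNA embryo 2 or embryo 4, with the mitochondrial covariate, with the length offset (1.75, adjusted p = 0.0771) but not when Klf5 siRNA embryo 1 was also left out (2.01, adjusted p = 0.0314), and over the 12 embryos with shared numbers, blocked or not. Nt5e, encoding the ectonucleotidase CD73, was lower, at 0 to 0.471 CPM (median 0.180) with Klf5 siRNA and 0.428 to 11.0 CPM (median 2.66) with scramble siRNA (-4.01 ± 0.87, adjusted p = 0.00325). It kept its call whichever embryo was left out but was not called with the replicate block or with the filter at 5 CPM. Its median with Klf5 siRNA was within the 0.120 to 0.204 CPM that 3 counts stood for in embryos. The direction was thus not shared by the tested targets: 4 had a positive and 7 a negative log2 fold change in embryos, and 10 a positive and 9 a negative one in ESCs.

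**Figure D5:**
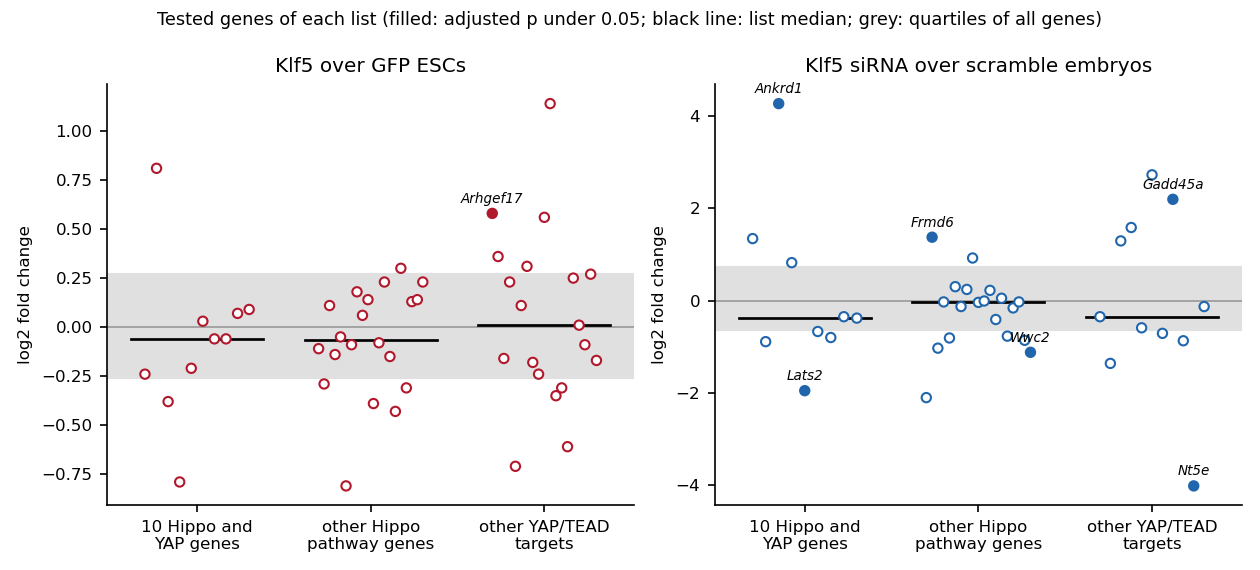
Log2 fold change (edgeR) of each tested gene among the 10 Hippo and YAP genes, 20 other pathway genes and 19 other YAP/TEAD targets, for Klf5 over GFP ESCs (left) and Klf5 siRNA over scramble embryos (right). Filled points passed at an adjusted p under 0.05, black lines are list medians and the grey band spans the quartiles of all tested genes, -0.26 to 0.27 in ESCs and -0.64 to 0.73 in embryos.

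In order of mean level per kilobase, ESCs had Amotl2 first (96.2 ± 33.9 CPM per kb with Klf5 and 125 ± 14.6 with GFP, SD, n = 2 each), then Ajuba (42.1 ± 5.55 and 49.7 ± 2.16). Yap1, Nf2 and Wwtr1 followed between 22.1 and 29.0 CPM per kb, with Yap1 and Nf2 overlapping in Klf5 ESCs. Tead1, Amot, Lats2 and Ankrd1 lay between 2.93 and 6.36 CPM per kb, with Tead1, Amot and Lats2 overlapping in Klf5 ESCs and Lats2 and Ankrd1 in GFP ESCs. Lats1 was last at 0.631 ± 0.0782 with Klf5 and 0.729 ± 0.0690 with GFP. In embryos Wwtr1 came first, at 15.4 ± 4.22 CPM per kb with Klf5 siRNA (n = 6) and 19.6 ± 3.38 with scramble siRNA (n = 10), apart from the next gene only in scramble embryos. In scramble embryos Yap1, Amotl2, Amot, Nf2, Tead1 and Lats2 followed from 7.25 to 3.89 CPM per kb, each overlapping its neighbour, and Lats1, Ajuba and Ankrd1 came last, at 0.274, 0.246 and 0.173. In Klf5 siRNA embryos Amot was second at 13.4 ± 12.3 and Ankrd1 at position 5 with 3.32 ± 5.10, with all neighbours overlapping but Lats1 and Ajuba, which was last at 0.0146 ± 0.0229. Yap1 made up 26.3 ± 9.49% of YAP1 and WWTR1 transcript per kilobase with Klf5 siRNA and 27.1 ± 6.15% with scramble siRNA, and 55.1 ± 1.99% in Klf5 ESCs and 54.9 ± 3.54% in GFP ESCs. ESC and embryo libraries came from different cDNA kits and were not tested against each other.

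Of 3 blastocyst genes on which the pathway is known to act, 2 were lower in Klf5 siRNA embryos. Cdx2 was lower, at a median of 6.87 CPM (0.364 to 18.1) with Klf5 siRNA and 29.1 CPM (14.8 to 131) with scramble siRNA (log2 fold change -2.43 ± 0.70, adjusted p = 0.0196), and Gata3 was lower at medians of 91.7 CPM and 196 CPM (-0.97 ± 0.27, adjusted p = 0.0148). Sox2, at medians of 1.74 CPM and 3.23 CPM, did not pass (-1.09 ± 0.60, adjusted p = 0.21). Without the library labelled Klf5 siRNA embryo 1, Cdx2 was at -2.78 (adjusted p = 0.0169), Gata3 at -1.23 (0.0034) and Sox2 at -1.05 (0.276). Gata3 lost its call with the mitochondrial covariate (-0.90, adjusted p = 0.0716) and the length offset (-0.66, 0.0776), and Cdx2 kept its call with each. Both lost it without Klf5 siRNA embryos 2 and 4, Cdx2 at -1.89 (adjusted p = 0.0503) and Gata3 at -0.75 (0.0838). Of 8 trophectoderm markers, Cdx2 and Gata3 among them, 6 were lower, against 7.74% of all genes. The summed level of the 8 was 182 to 2400 CPM in Klf5 siRNA embryos, against 2090 to 8430 CPM in scramble embryos. No marker was at 0 in any embryo. By the mean, these sums were mainly Krt8 (425 and 1500 CPM in the 2 groups) and Krt18 (614 and 2070 CPM), with Gata3 next (101 and 197 CPM). Of 6 primitive endoderm markers 2 were lower (summed 179 to 484 CPM with Klf5 siRNA and 325 to 593 CPM with scramble siRNA). Dab2 was the largest part of these sums by the mean, at 231 and 318 CPM. Of 6 epiblast markers 1 was higher, against 12.0% of all genes (223 to 478 CPM and 163 to 450 CPM). The epiblast markers were split, 3 with a positive and 3 with a negative log2 fold change. In ESCs, 2 of 6 primitive endoderm markers were higher, against 1.67% of all genes (summed 100 to 223 CPM with Klf5 and 37.7 to 42.8 CPM with GFP). None of 8 trophectoderm markers passed there, at summed levels of 273 and 634 CPM with Klf5 and 1840 and 867 CPM with GFP, nor did any of 6 epiblast markers (4750 to 4890 CPM and 4020 to 4120 CPM). Fibroblast markers, which feeders express, summed to 1400 and 1410 CPM in Klf5 ESCs and 872 and 1050 CPM in GFP ESCs, with 8 of 9 tested markers at a positive log2 fold change and 1 passing, but to at most 22.3 CPM in Klf5 siRNA embryos and 4.44 CPM in scramble embryos. Of 10 fibroblast markers 1 could be tested in embryos, Thy1, named after its values were seen, and it was higher (4.26 ± 1.02, adjusted p = 0.00621). The part of these cell types in the Hippo values was not tested.

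Mitochondrial counts were 2.45 to 10.3% of the total in Klf5 siRNA embryos, against 4.34 to 18.5% in scramble embryos, and ribosomal protein counts 7.85 to 14.1% and 3.86 to 9.32%. Log2 fold changes in embryos also followed transcript length, with a median of 0.90 in length decile 1 (the shortest genes) and -0.34 in decile 10 (the longest). Of the 9 tested members, 8 fell in deciles 8 to 10 and Ankrd1 in decile 4. Under the mitochondrial covariate and the length offset, the members given under neither so far were, in that order, at -0.24 and -0.05 for Yap1, 1.41 and 1.29 for Lats1, -0.54 and -0.30 for Nf2 and -1.22 and -0.57 for Amotl2, and none of these 4 passed. Wwtr1, Tead1 and Ankrd1 are given under 1 of the 2 only.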

How the data were processed

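Polyadenylated RNA was read from 4 ESC libraries (TruSeq v2 cDNA) and 16 single-embryo libraries (SMARTseq-V4 cDNA), all prepared with NEBNext Ultra II, per the labels' protocols. The authors deposited estimated counts (expected counts) per Ensembl gene, unnormalized, for which the submitters' processing notes name kallisto 0.46 and mm10. The step from transcripts to genes and the annotation release are not given in the sources used here. Of 30265 genes, 29910 matched a GENCODE M21 symbol (GRCm38, the same assembly as mm10). Positions and lengths (longest protein-coding transcript) came from that annotation.

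Counts were rounded, and library totals changed by at most 0.000559%. Each experiment was fitted alone with edgeR 4.0.16 in R 4.3.3 (filterByExpr with a lowest count of 10, TMM, robust quasi-likelihood test), with Benjamini-Hochberg adjustment over all genes and a threshold of 0.05. Residual degrees of freedom were 2 in ESCs and 14 in embryos. CPM use TMM-scaled library sizes. The scripts were tested on simulated data. Alternatives were RLE and upper quartile scaling, DESeq2 1.42.0, no filter, a filter at 5 CPM, each library left out, a replicate block and, in embryos, a mitochondrial covariate, an offset for each library's length trend (lowess span 0.3), the 12 embryos of the block unblocked and leaving out Klf5 siRNA embryos 2 and 4. Chosen after seeing the data were the length offset without Klf5 siRNA embryo 1 and crossed replicate numbers in ESCs.

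The 10 genes and the lists (pathway, targets, blastocyst genes, and trophectoderm, epiblast, primitive endoderm and fibroblast markers) were chosen with earlier results of these data known. All 10 genes are named with values, as are 14 further pathway and target genes, Cdx2, Gata3 and Sox2. Other pathway and target genes are named where they passed, up to 6 a direction, and marker lists are given mainly as counts and sums. Intervals and floors cover counting error only.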

Additional observations from a re-analysis of the deposited data

Results flagged for a closer look

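Values of the 10 genes were compared within each embryo group for 1 sample far from the rest, and 2 of 20 groups held one. Chance marks about 1 of 20 groups where values are normally spread. That rate need not hold for CPM, such as Ankrd1 with a scramble mean of 0.349 and a median of 0.0653 CPM. Lats2 in scramble embryo 1 was at 51.9 CPM, while the next highest scramble embryo was at 27.4 CPM. That gap was 0.58 of the group's whole range, and the Lats2 call in embryos ended without this library (log2 fold change -1.67, adjusted p = 0.0537, edgeR). Tead1 was also highest in this embryo, at 83.5 CPM. Ankrd1 in scramble embryo 10 was at 1.95 CPM, from 41 counts, while the next highest scramble embryo was at 0.683 CPM, a gap of 0.65 of the range. The Ankrd1 call held without it.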

How the results depend on the processing

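In ESCs, 443 genes passed in the main fit, 1439 in DESeq2, 870 without a filter and 149 with the replicate block. With 1 library left out, 1 to 980 passed, the fewest without the first GFP library and the most without the second Klf5 library. With 1 library left out the count of members was 0 to 1, Amotl2 without the second Klf5 library. Same-numbered ESC libraries deviated apart (correlation -0.11), and with the numbers crossed as a block 1467 genes and 2 members (1 higher, 1 lower) passed. With 2 libraries per group, crossing the numbers only turns the sign of that correlation. The crossed block was chosen after seeing the data, so its counts give no evidence on pairing or on the members. Leaving out libraries turned the sign of 4 members whose main values were near 0: Tead1 ranged from -0.14 to 0.01, Lats2 from -0.17 to 0.26, Nf2 from -0.14 to 0.03 and Wwtr1 from -0.08 to 0.24. RLE and upper quartile scaling changed no member's sign or call in either experiment.

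In embryos, 2448 genes and 2 members passed in the main fit. The count of members was 4 in DESeq2 (Amot and Ajuba in addition), 1 with a filter at 5 CPM, 1 with the mitochondrial covariate and 0 to 3 with 1 embryo left out, the fewest without Klf5 siRNA embryo 5. These counts are not set against the number of all genes called in each setting, so they show nothing particular to the members. Replicate numbers came with no stated pairing, same-numbered embryos correlated at -0.11 to 0.11 and 1 of 6 correlated best with its own number. With the block, over 12 embryos, 902 genes and 0 members passed, and over the same 12 without it 1423 genes and 0 members. Lats2 was at -2.52 (adjusted p = 0.0773) with the block and -2.24 (0.0521) without it, and Klf5 at -1.40 (0.07) and -1.07 (0.0964). Ankrd1 was too low to be tested over those 12 embryos or with the 5 CPM filter. The length offset moved the median of all genes to 0.11, and Wwtr1 turned to 0.01 with it and to 0.03 with Klf5 siRNA embryo 1 also left out, against -0.35. Tead1 turned to 0.23 with the mitochondrial covariate. The causes were not tested. Of 239 values of single members under alternatives, 219 kept sign and call. Depth limits Ajuba, at 3 counts or fewer in every Klf5 siRNA embryo, and Ankrd1, at 0 in 1 Klf5 siRNA and 3 scramble embryos.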
